A study of Homo sapiens with 8 samples.

Results

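The genes SOCS1, SOCS2, SOCS3, CISH, PIM1, PIM2, BCL6, STAT3, IL6R and IL6ST form a receptor, transcription factor and feedback axis of cytokine signalling. They were taken by gene symbol from the gene count files of lung cancer spheres, where each symbol matched 1 protein-coding gene. They were 10 of the 60106 genes in the files, and all 10 were among the 24185 genes with enough counts to be tested. The treated spheres received PD-L1s, a soluble version of the checkpoint ligand PD-L1 that was made synthetically (n = 4 libraries). The dose was 25 µg/ml, the exposure lasted 15 min, and the medium held no serum. The untreated spheres (n = 4 libraries) came from the same lines. The spheres, called pneumospheres, were grown from established non-small cell lung cancer lines in flasks to which cells do not attach, in DMEM-F12 without serum but with fibroblast and epithelial growth factors and B-27. By their labels EBC1 is a squamous cell carcinoma line, and H820, H1975 and H23 are adenocarcinoma lines. Each line gave 1 treated and 1 untreated library of total RNA, so the 4 lines are the replicates of the treatment. The labels name no genetic change in any line.

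In this axis a cytokine such as IL-6 binds its own receptor, encoded by IL6R, which then joins gp130, the shared signalling chain encoded by IL6ST. JAK kinases on gp130 phosphorylate STAT3, which moves to the nucleus and switches on target genes, among them some that shut the pathway down again. SOCS3 binds gp130 and JAKs and blocks them, SOCS1 inhibits JAKs directly, and CISH and SOCS2 are brakes best known for receptors that signal through STAT5. PIM1 and PIM2 are serine/threonine kinases that promote survival and growth, and BCL6 is a transcriptional repressor that competes with STATs for DNA. In lung cancer STAT3 is often active, driven by receptors such as EGFR or by IL-6 made in the tumour.

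Totals ran from 5559870 to 27524854 counts per library. The treated library was 4.67 times as deep as the untreated in EBC1, 4.28 times in H820, 0.936 times in H1975 and 0.766 times in H23. The 2 libraries of a line differed by more than sampling noise, with a chi-square per degree of freedom of 4.14 in H1975 and 19.7 in H820, the ends of the range. Levels below are CPM, counts scaled to a common library total, here adjusted by TMM, a method that matches libraries on the bulk of their genes. Replacing TMM by the plain library total moves every log2 ratio of PD-L1s over untreated by -0.12 in EBC1, -0.23 in H820, -0.02 in H1975 and 0.06 in H23. The immune markers CD3E and PTPRC had at most 0.0472 and 0.402 CPM in any library, and MS4A1 had 0. Of the 8 immune markers 5 reached 1 CPM in some library. H1975 had CSF1R at 22.7 CPM in both libraries, and CD14 at 4.67 CPM in treated and 6.11 CPM in untreated spheres. The 8 immune markers summed to 8.25 to 161 CPM in the treated and 6.79 to 152 CPM in the untreated libraries, most of it from CD68, a lysosomal gene that is not restricted to macrophages. The label of EBC1 was not borne out by the squamous markers KRT5, at 0 CPM in both of its libraries, and TP63, at 0.314 CPM in treated and 0.192 CPM in untreated spheres. KRT5 was at most 0.0472 CPM in any library, so it sets no line apart. TP63 had 86.7 CPM in treated and 87.2 CPM in untreated H1975. NKX2-1, a marker of lung adenocarcinoma, had 75.2 CPM in treated and 78.4 CPM in untreated H1975. It had 54.0 CPM in treated and 35.6 CPM in untreated H820. In H23, labelled adenocarcinoma, it had 5.68 CPM in treated and 5.46 CPM in untreated spheres. EBC1 had it at 0.224 CPM in treated and 0 CPM in untreated spheres. The other markers of that lineage, NAPSA, SFTPB and SFTPC, had at most 4.23, 0.283 and 0.0402 CPM in any library. In H23 the epithelial adhesion gene CDH1 was at 1.66 CPM in treated and 2.01 CPM in untreated spheres, and in the other lines it was at 332 CPM or more. The other epithelial markers in treated and untreated H23 were KRT18 at 76.2 and 74.2 CPM, KRT8 at 52.7 and 55.8 CPM and EPCAM at 11.5 and 11.6 CPM. CDH3 had 6.59 and 6.50 CPM there, and KRT19 0.805 and 1.49 CPM. Each was lower than in any library of the other lines, but the keratins KRT8 and KRT18 were clearly present.

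The DNA in front of these genes is shown because STAT proteins bind a short palindrome, TTCNNNGAA, and several of the genes are known STAT targets. The 250 bases before the gene start, taken from RefSeq on GRCh38.p14 and read 5′ to 3′ on the strand of the gene, were searched for it. The motif reads alike on both strands, so each match was counted once. It is in capitals in the sequences of CISH (chr3:50611775-50612024, minus strand) and BCL6 (chr3:187745469-187745718, minus strand). The sequence of SOCS3 (chr17:78360926-78361175, minus strand), the gene with the highest ratio in H820, is shown beside them and has no capitals because it holds no match.
CISH: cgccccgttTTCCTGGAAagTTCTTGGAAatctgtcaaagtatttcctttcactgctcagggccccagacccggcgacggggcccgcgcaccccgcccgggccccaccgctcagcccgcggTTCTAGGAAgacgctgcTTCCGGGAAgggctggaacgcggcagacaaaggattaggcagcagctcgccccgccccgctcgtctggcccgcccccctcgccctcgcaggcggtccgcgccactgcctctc
BCL6: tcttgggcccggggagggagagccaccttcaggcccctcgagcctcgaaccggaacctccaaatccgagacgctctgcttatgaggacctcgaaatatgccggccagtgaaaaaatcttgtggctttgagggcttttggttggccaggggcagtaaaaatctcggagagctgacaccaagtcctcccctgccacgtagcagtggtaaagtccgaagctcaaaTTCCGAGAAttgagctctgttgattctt
SOCS3: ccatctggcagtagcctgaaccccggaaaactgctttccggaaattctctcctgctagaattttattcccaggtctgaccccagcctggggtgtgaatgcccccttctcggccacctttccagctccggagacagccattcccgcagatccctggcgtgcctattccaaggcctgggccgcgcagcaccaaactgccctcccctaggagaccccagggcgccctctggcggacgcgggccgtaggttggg
CISH held 4 matches, whose first bases lie 241, 230, 129 and 112 bases before the gene start. BCL6 held 1 match in the stretch shown, 28 bases before its start, and 3 more that overlap or follow the start, which makes 4 in the window of 300 bases that ends 50 bases into the gene. SOCS3 held no match in the stretch shown, and none was found before its other start. The windows of SOCS1, PIM1, PIM2, STAT3, IL6R, IL6ST and the other start of BCL6 held none either. The starts are those of RefSeq on GRCh38, and the genes were counted on GRCh37. Whether the windows of SOCS3 lie next to the start of the counted gene was not tested. A match nearer to that start could be missed, so SOCS3 cannot be said to lack the motif. SOCS2 had no window in the table. Of 35116 promoter windows of 27305 genes, 6.57% held at least 1 match in the 250 bases before the start, and 5 windows (0.0142%) held 4 or more. Over the 300 bases, 7 windows (0.0199%) held 4 or more. A match is a description of the letters, and no binding was measured.

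The first question was whether RNA of the axis differed after 15 min of PD-L1s. None of the 10 genes passed across the 4 lines, but 9 of 10 had a fitted difference above 0, led by SOCS3, SOCS1 and PIM2. The movement was concentrated in 1 line, H820, where SOCS3 was 6.92-fold higher in treated spheres. EBC1 showed smaller differences, and H1975 and H23 showed almost none. The plot of levels by library shows these values.

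**Figure D1:**
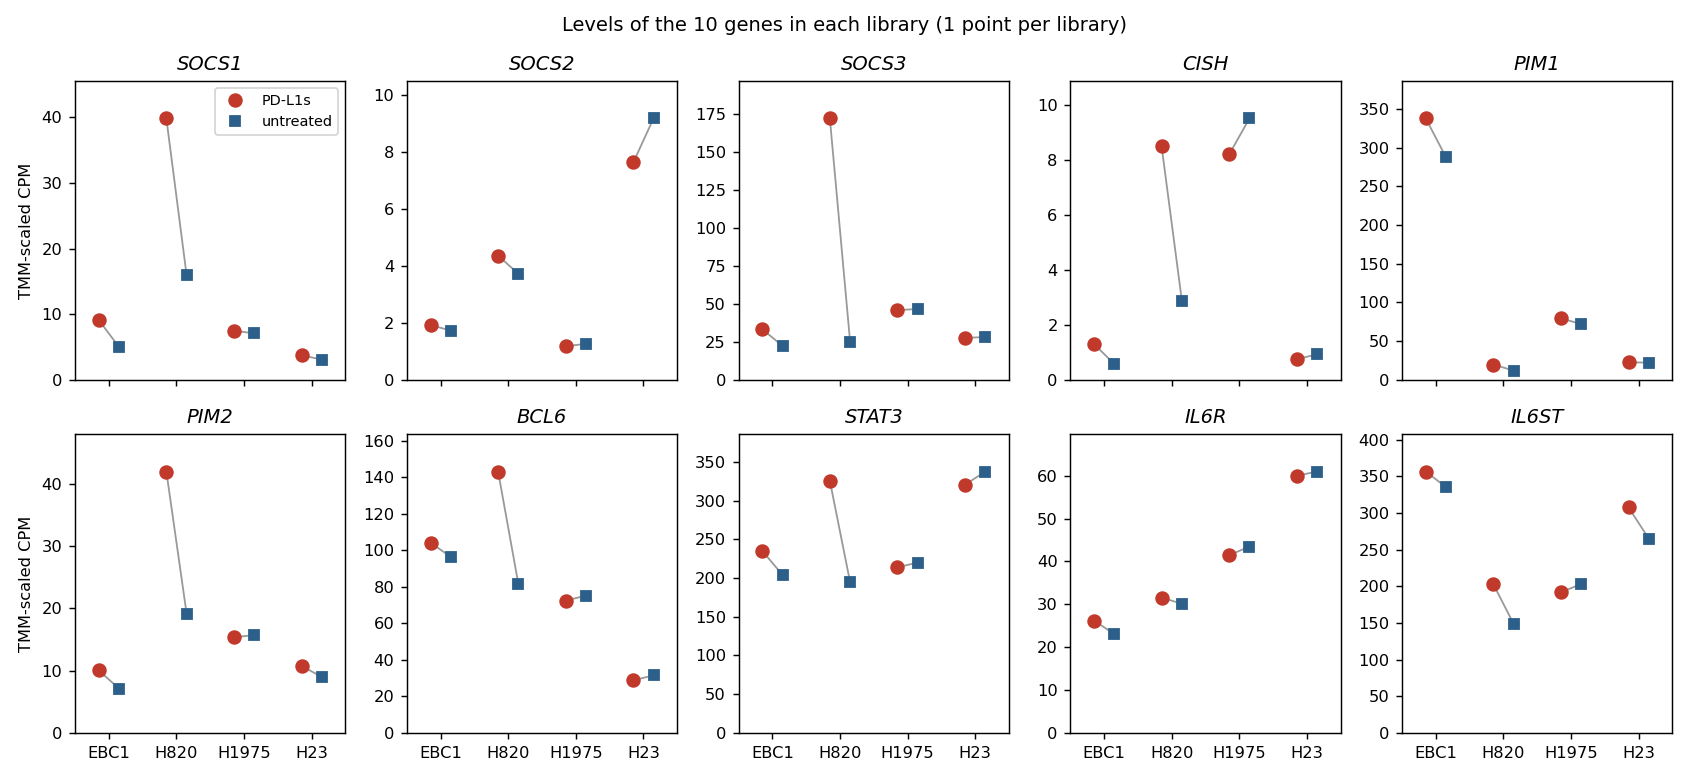
TMM-scaled CPM of each gene (y axis, from 0, a scale of its own per gene) in the 4 lines (x axis), with 1 red circle for the PD-L1s library and 1 blue square for the untreated library of a line, joined by a grey line. SOCS3, SOCS1 and PIM2 stand highest in treated H820, at 172, 39.9 and 42.0 CPM, while PIM1 is highest in EBC1 and SOCS2 and IL6R in H23.

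Among the feedback inhibitors, SOCS3 had 172 CPM in treated H820, against 24.9 CPM in untreated H820. In EBC1 it had 33.4 CPM in treated and 22.3 CPM in untreated spheres, in H1975 45.9 CPM in treated and 46.6 CPM in untreated spheres, and in H23 27.6 CPM in treated and 28.1 CPM in untreated spheres. Treated H820 thus stands alone above all other libraries, and without it the treated and untreated values lie in the same range. Its fitted difference was log2 0.75 ± 0.30 (SE, n = 4 lines), higher in 2 of 4 lines, with an adjusted p of 0.9995 by edgeR's quasi-likelihood test with Benjamini-Hochberg adjustment. Without H820 the fitted value was 0.13 ± 0.12. SOCS3 lies on chromosome 17 from 76352859 to 76356158 (GRCh37, minus strand), and this and all values below count reads over exons.

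SOCS1, the direct JAK inhibitor on chromosome 16 (11348262 to 11350057), was higher in treated spheres of every line. It had 39.9 CPM in treated and 15.9 CPM in untreated H820, 9.10 CPM in treated and 4.995 CPM in untreated EBC1, 7.50 CPM in treated and 7.07 CPM in untreated H1975, and 3.72 CPM in treated and 3.09 CPM in untreated H23. The values of the treated and untreated libraries overlap across lines. The fitted difference was log2 0.64 ± 0.19 and did not pass (adjusted p = 0.9995, edgeR), although its unadjusted p, 0.0030, was the smallest among these genes. Without H820 it was 0.33 ± 0.18.

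CISH (chromosome 3, 50643927 to 50649262), whose promoter holds the 4 motifs shown above, had 8.50 CPM in treated and 2.88 CPM in untreated H820. In EBC1 it had 1.30 CPM in treated and 0.58 CPM in untreated spheres, from 29 counts in the treated and 3 in the untreated library. In H1975 it had 8.20 CPM in treated and 9.52 CPM in untreated spheres, and in H23 0.75 CPM in treated and 0.92 CPM in untreated spheres. It was thus higher in treated spheres of H820 and EBC1 and lower in those of the other lines, and its fitted log2 of 0.36 ± 0.28 turned to -0.10 ± 0.24 without H820. SOCS2 (chromosome 12, 93963590 to 93970521), the remaining brake, had a fitted log2 of -0.05 ± 0.21 and was higher in treated spheres of 2 of 4 lines. Its levels were 4.37 CPM in treated and 3.73 CPM in untreated H820, 1.93 CPM in treated and 1.73 CPM in untreated EBC1, 1.18 CPM in treated and 1.27 CPM in untreated H1975, and 7.64 CPM in treated and 9.19 CPM in untreated H23.

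The 2 PIM kinase genes were both higher in treated H820. PIM2 (X chromosome, 48770459 to 48776301) had 42.0 CPM in treated and 19.1 CPM in untreated H820, 10.04 CPM in treated and 7.11 CPM in untreated EBC1, 15.4 CPM in treated and 15.7 CPM in untreated H1975, and 10.8 CPM in treated and 8.99 CPM in untreated H23. Its fitted log2 was 0.45 ± 0.16 (unadjusted p = 0.0129, adjusted p = 0.9995, edgeR), higher in 3 of 4 lines, and 0.18 ± 0.14 without H820. PIM1 (chromosome 6, 37137979 to 37143202) was higher in treated spheres of 4 of 4 lines, by little against its differences between lines. It had 19.7 CPM in treated and 11.9 CPM in untreated H820, 338 CPM in treated and 288 CPM in untreated EBC1, 79.3 CPM in treated and 72.2 CPM in untreated H1975, and 22.7 CPM in treated and 22.2 CPM in untreated H23, with a fitted log2 of 0.25 ± 0.12. BCL6 (chromosome 3, 187439165 to 187463515) had 143 CPM in treated and 81.5 CPM in untreated H820, 104 CPM in treated and 96.3 CPM in untreated EBC1, 72.4 CPM in treated and 75.1 CPM in untreated H1975, and 28.9 CPM in treated and 31.4 CPM in untreated H23. Its fitted log2 of 0.19 ± 0.13 turned to -0.02 ± 0.09 without H820, so its positive sign rests on that line.

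STAT3 itself (chromosome 17, 40465342 to 40540586) had 326 CPM in treated and 195 CPM in untreated H820. It had 235 CPM in treated and 204 CPM in untreated EBC1, 214 CPM in treated and 220 CPM in untreated H1975, and 321 CPM in treated and 338 CPM in untreated H23. The H820 pair differed most, and the fitted log2 was 0.20 ± 0.13 with H820 and 0.02 ± 0.09 without it. The shared receptor chain IL6ST (chromosome 5, 55230923 to 55290821) had 203 CPM in treated and 149 CPM in untreated H820, 357 CPM in treated and 335 CPM in untreated EBC1, 192 CPM in treated and 203 CPM in untreated H1975, and 308 CPM in treated and 265 CPM in untreated H23, with a fitted log2 of 0.17 ± 0.12. IL6R (chromosome 1, 154377669 to 154441926), which gives the pathway its ligand specificity, moved least. It had 31.5 CPM in treated and 30.1 CPM in untreated H820, 26.2 CPM in treated and 23.1 CPM in untreated EBC1, 41.4 CPM in treated and 43.5 CPM in untreated H1975, and 59.99 CPM in treated and 61.0 CPM in untreated H23, with a fitted log2 of 0.03 ± 0.11 whose sign turned with the scaling (-0.04 by library size alone).

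Across the 10 genes, 0 were called by edgeR, against a background of 9 of 24185 genes (0.0372%), and 0 by DESeq2 or limma-voom. At an unadjusted p under 0.05 edgeR gave 3 of 10, SOCS1, SOCS3 and PIM2, against 873 of 24185 genes (3.61%), where DESeq2 gave 1 of 10 and limma-voom 3. The fitted difference was above 0 in 9 of the 10 genes and in 59.9% of all genes tested, and its median was 0.23 over the 10 genes and 0.04 over all genes. Without H820 the median of the 10 was 0.05, 7 were above 0, and 0 had an unadjusted p under 0.05 (background 1.97%). Over all 23141 genes tested without H820, the median was 0.02 and 13288 were above 0. One setting made calls: with no filter on low counts, 98 of 42160 genes passed (0.232%), among them SOCS3 (log2 0.79, adjusted p = 6.67e-05) and SOCS1 (log2 0.68, adjusted p = 0.021), while over the other settings tried their adjusted p ran no lower than 0.350 and 0.435. In bulk RNA, fewer cells of a type and less RNA per cell cannot be told apart.

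**Figure D2:**
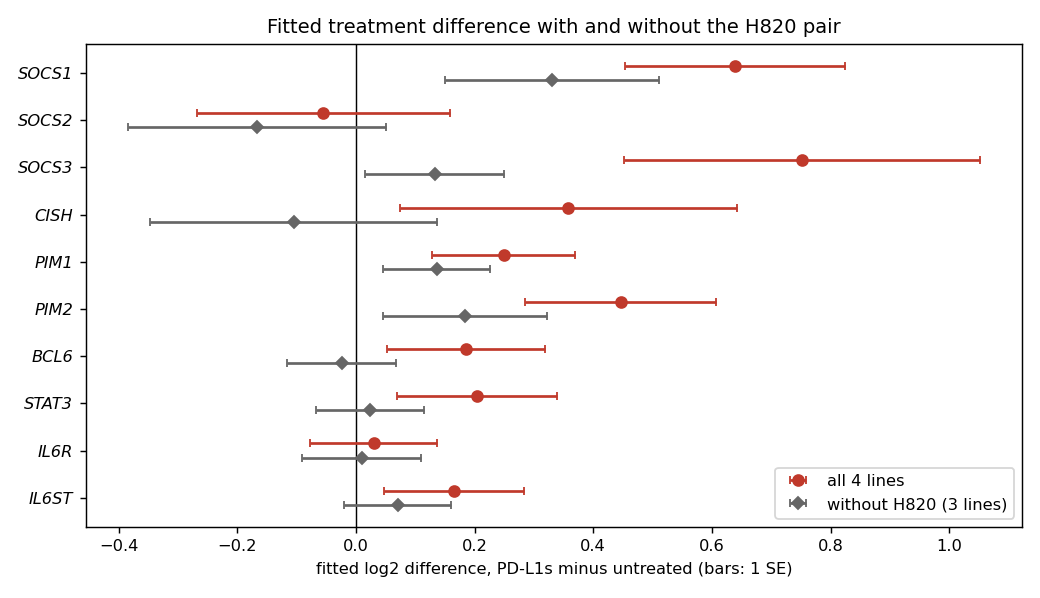
Fitted log2 difference of PD-L1s minus untreated spheres (x axis, with 1 SE) for each gene, over all 4 lines (red circles) and without H820 (grey diamonds). The values of SOCS3 are 0.75 with H820 and 0.13 without it, and those of SOCS1 0.64 and 0.33.

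Each line had a single library of each condition, so ratios within a line have no replicate check, and their 95% intervals (exact, conditional binomial) cover counting error only. In H820 all 10 genes had a higher CPM in treated spheres, and 4 of 10 by over 2-fold: SOCS3 6.92-fold (5.86 to 8.21), CISH 2.95-fold (1.79 to 5.18), SOCS1 2.50-fold (2.02 to 3.13) and PIM2 2.19-fold (1.80 to 2.69). The background was 629 of the 14883 genes that reached 50 counts in either library (4.23%), and 22 of those genes (0.148%) had a ratio at least as high as SOCS3. The next genes were BCL6 at 1.76-fold (1.59 to 1.94), STAT3 at 1.67-fold (1.57 to 1.78) and PIM1 at 1.67-fold (1.29 to 2.18). IL6ST had 1.36-fold (1.27 to 1.47), SOCS2 1.17-fold (0.731 to 1.96) and IL6R 1.05-fold (0.886 to 1.24). The inhibitors other than SOCS2 and a PIM kinase thus led, and the receptor IL6R came last.

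The treated H820 library was 4.28 times as deep as its partner. When its counts were thinned to the depth of the partner, the log2 ratios were 2.80 for SOCS3, 1.67 for CISH, 1.29 for SOCS1 and 1.01 for PIM2, against 2.78, 1.48, 1.31 and 1.12 unthinned. With library size in place of TMM they were 2.55, 1.26, 1.08 and 0.89, so PIM2 fell below 2-fold, 8 of the 10 genes stayed above 0 and 3 were over 2-fold. CD68 had 131 CPM in treated and 65.9 CPM in untreated H820, while PTPRC had 0 in both. The median log2 ratio of the 10 genes in H820 was 0.78, and that of all genes past the same count limit was 0.14.

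In EBC1, too, all 10 genes had a higher CPM in treated spheres, but 0 of the 8 with at least 50 counts by over 2-fold (background 1.33%). SOCS1 was 1.82-fold higher (1.21 to 2.86), SOCS3 1.50-fold (1.23 to 1.84), PIM2 1.41-fold (0.994 to 2.06) and PIM1 1.18-fold (1.11 to 1.24). CISH, from few counts, had a ratio of 2.26 with an interval of 0.699 to 11.6. The median log2 ratio of the 10 genes was 0.22, that of all genes 0.13, and with library size in place of TMM the 10 had 0.09, with IL6ST at -0.03 and BCL6 at -0.01. The treated EBC1 library was 4.67 times as deep as its partner, and with its counts thinned to that depth the median was 0.23, 9 of the 10 genes were above 0, and SOCS1, at log2 1.10, was over 2-fold.

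In H1975 and H23 the 10 genes stayed close to their untreated levels. Their median log2 ratio was -0.05 in H1975 and -0.03 in H23, where that of all genes was -0.01 in both. None of the 9 genes with at least 50 counts was over 2-fold higher in either line (background 0.113% in H1975 and 0.136% in H23). SOCS3 had a ratio of 0.984 (0.901 to 1.07) in H1975 and 0.981 (0.876 to 1.10) in H23, at depths of 549 to 1068 counts. Its interval in these lines reaches at most 1.10-fold, and in H820 it starts at 5.86-fold. In H23 IL6ST was 1.16-fold higher (1.12 to 1.20) and STAT3 had a ratio of 0.949 (0.919 to 0.981), so small differences beyond counting error went both ways.

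**Figure D3:**
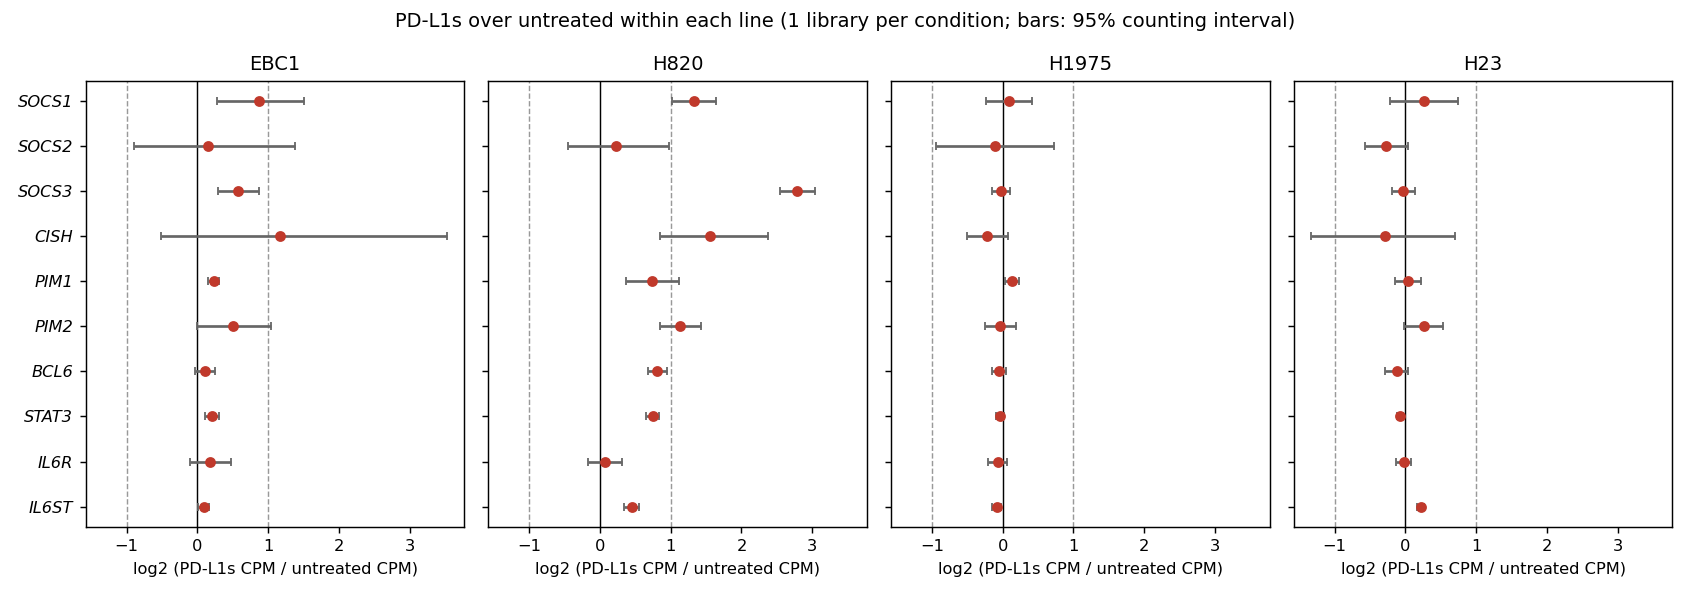
Log2 ratio of PD-L1s over untreated CPM within each line (x axis) for the 10 genes (y axis), with 95% counting intervals; dashed lines mark 2-fold. In H820 SOCS3, CISH, SOCS1 and PIM2 lie beyond 2-fold, and in H1975 and H23 the points lie near 0.

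Whether the lines responded differently was tested for EBC1 and H820 against H23 and H1975, the split that also separates lines with uneven from lines with even depth. None of the 10 genes was called (background 10 of 24185, 0.0413%). The difference in response was log2 1.79 ± 0.40 for SOCS3 (unadjusted p = 0.0003, adjusted p = 0.175, edgeR), 1.72 ± 0.45 for CISH (adjusted p = 0.300), 1.01 ± 0.28 for SOCS1 (adjusted p = 0.339) and 0.80 ± 0.26 for PIM2 (adjusted p = 0.419). With BCL6 and STAT3 that made 6 of 10 genes at an unadjusted p under 0.05, where all genes gave 8.81%, and the split was chosen with the results of these libraries known. Depth and line cannot be told apart in this split, and the cause was not tested. With the deep libraries thinned SOCS3 had 1.84 and CISH 1.85, and 2 of 21188 genes were called in all. For EBC1 against the adenocarcinoma lines, the other split, 0 of 10 genes were called (background 0.0124%), and 0 had an unadjusted p under 0.05.

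The lines differed in their levels of these genes, with the highest line mean 19.8 times the lowest for PIM1, 10.6 times for CISH and 8.19 times for SOCS1. For SOCS3 it was 3.54 times, below the 6.92-fold ratio of treated over untreated spheres within H820, and for STAT3 it was 1.52 times, below the 1.67-fold ratio there. All 10 genes differed between lines (edgeR, adjusted p under 0.05), as did 86.3% of all genes, and 42 of the 60 comparisons of 2 lines passed, where all genes gave 57.6%. Neighbours in the order of levels differed in 14 of 30 comparisons, and they are the closest levels by construction, as the order comes from these same libraries. These tests rest on 2 libraries per line, 1 treated and 1 untreated, so they measure the spread between those libraries and not between tumours. Of the 42 calls, 25 stood whichever library was left out, and no call of SOCS3 or STAT3 was among them. For this count and that of neighbours the share over all genes was not computed. The test over all lines lost SOCS3 in DESeq2 (adjusted p = 0.259) and without treated EBC1 (0.0521), and STAT3 without untreated H23 (0.391).

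PIM1 differed most. It averaged 313 CPM over the 2 libraries in EBC1, 75.7 CPM in H1975, 22.4 CPM in H23 and 15.8 CPM in H820. EBC1 was above H1975 by log2 2.04 ± 0.17 (adjusted p = 9.7e-09, edgeR; background 52.6%), and H1975 above H23 by 1.75 ± 0.17 (adjusted p = 5.5e-08; background 62.6%). H23 was above H820 by 0.49 ± 0.18 (adjusted p = 0.0270; background 58.9%), a step that was lost without untreated H820 (adjusted p = 0.209) or untreated H23 (0.273) and in limma-voom (0.0576). PIM2 ran the other way, highest in H820 at 30.6 CPM, with 15.5 CPM in H1975, 9.88 CPM in H23 and 8.58 CPM in EBC1. H820 was above H23 by 1.61 ± 0.22 and above EBC1 by 1.82 ± 0.24, and the lowest neighbours, H23 and EBC1, did not pass (0.21 ± 0.24, adjusted p = 0.464) but were called by library size (adjusted p = 0.0035). The step of H820 above H1975 (0.94 ± 0.21) was lost without treated H820 (0.37, adjusted p = 0.199) or treated H1975 (0.56, adjusted p = 0.0972).

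The inhibitors had different leading lines. SOCS1 was highest in H820 at 27.9 CPM, with 7.28 CPM in H1975, 7.05 CPM in EBC1 and 3.41 CPM in H23, and H820 was above H1975 by log2 1.87 ± 0.24 (adjusted p = 3.1e-06, edgeR; background 54.5%). H1975 and EBC1 did not differ beyond their spread (adjusted p = 0.856). SOCS2 was highest in H23 at 8.42 CPM, then 4.05 CPM in H820, 1.83 CPM in EBC1 and 1.22 CPM in H1975. H23 was above EBC1 by 2.15 ± 0.30 (background 61.3%) and above H1975 by 2.78 ± 0.28. Its step above H820 was 1.01 ± 0.27 and was lost without untreated H23 (adjusted p = 0.0800), and EBC1 and H1975 did not differ beyond their spread (adjusted p = 0.146).

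CISH separated the lines into a higher and a lower pair. It averaged 8.86 CPM in H1975 and 5.69 CPM in H820, against 0.94 CPM in EBC1 and 0.84 CPM in H23. H1975 was above EBC1 by log2 3.10 ± 0.42 and above H23 by 3.38 ± 0.38, and H820 above H23 by 2.81 ± 0.41. Within each pair the lines did not pass (adjusted p = 0.146 and 0.653), but the difference of H820 minus H1975 was called without treated H820 (-1.69, adjusted p = 0.000594) or treated H1975 (-1.24, adjusted p = 0.0146). Without treated H820 the step of H820 above EBC1 was lost (adjusted p = 0.0604). SOCS3 averaged 98.5 CPM in H820, 46.3 CPM in H1975, 27.9 CPM in H23 and 27.8 CPM in EBC1. H820 was above H23 by 1.58 ± 0.42 and above EBC1 by 1.67 ± 0.42 (background 55.7%), and both rest on the treated library. Without it the difference was -0.11 for H820 minus H23 (adjusted p = 0.686), -0.85 for H820 minus H1975 (adjusted p = 0.000571) and 0.14 for EBC1 minus H820 (adjusted p = 0.639). The step above EBC1 was also lost without treated EBC1 (adjusted p = 0.113), and both were lost in DESeq2 (adjusted p = 0.132 for H23 and 0.105 for EBC1).

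The receptor genes and STAT3 varied least between lines. IL6R averaged 60.5 CPM in H23, 42.5 CPM in H1975, 30.8 CPM in H820 and 24.6 CPM in EBC1, and H23 was above EBC1 by log2 1.28 ± 0.15 and above H820 by 0.97 ± 0.15. H820 and EBC1, the lowest neighbours, did not pass (0.31 ± 0.16, adjusted p = 0.0983), but were called by library size (adjusted p = 0.0059), with protein-coding genes only (0.0441) and with thinned counts (0.0440). IL6ST averaged 346 CPM in EBC1, 287 CPM in H23, 198 CPM in H1975 and 176 CPM in H820. EBC1 was above H820 by 0.98 ± 0.17 and H23 above H820 by 0.71 ± 0.17, whereas EBC1 against H23 and H1975 against H820 did not pass (adjusted p = 0.163 and 0.387). EBC1 against H23 was called without untreated H820 (adjusted p = 0.0365) or treated H820 (0.0394), and H1975 against H820 without treated H820 (0.0363). STAT3 had the narrowest range, with 329 CPM in H23, 260 CPM in H820, 220 CPM in EBC1 and 217 CPM in H1975. H23 against H820 did not pass (0.36 ± 0.19, adjusted p = 0.110, edgeR). H820 minus H23 was called by library size (-0.72, adjusted p = 7.1e-05) and at a minimum count of 50 (-0.42, adjusted p = 0.0462). Without treated H820 that difference was -0.76. H23 was above EBC1 by 0.59 ± 0.19 and above H1975 by 0.60 ± 0.19, and both calls were lost without untreated H23 (adjusted p = 0.213 and 0.226). BCL6 averaged 112 CPM in H820, 100.2 CPM in EBC1 and 73.8 CPM in H1975, against 30.2 CPM in H23. Each of the other lines was above H23, H820 by 1.88 ± 0.19, EBC1 by 1.72 ± 0.19 and H1975 by 1.29 ± 0.19, and H820 and EBC1 did not pass (adjusted p = 0.505). EBC1 minus H820 was called by library size (-0.36, adjusted p = 0.047) and without untreated H820 (-0.52, adjusted p = 0.0028).

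Levels of different genes can be compared only per length of transcript, as TPM, which here are not TMM-scaled. STAT3 had the highest mean of the 10 over the lines, at 85.2 TPM, with PIM1 at 55.2, IL6ST at 45.1, BCL6 at 29.2 and SOCS3 at 28.3 TPM. PIM2 had 12.2, IL6R 11.4, SOCS1 9.51, CISH 2.80 and SOCS2 1.14 TPM. The shared chain IL6ST thus stood above the ligand-specific receptor IL6R in every library, at 25.4 to 79.0 TPM for IL6ST and 5.18 to 23.2 TPM for IL6R. In EBC1 PIM1 had 152 TPM in treated and 147 TPM in untreated spheres, above STAT3 at 55.4 TPM in treated and 54.9 TPM in untreated spheres. SOCS3 in treated H820, at 90.0 TPM, reached the level of STAT3 there, at 92.2 TPM, while in untreated H820 SOCS3 had 14.1 TPM and STAT3 59.6 TPM.

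**Figure D4:**
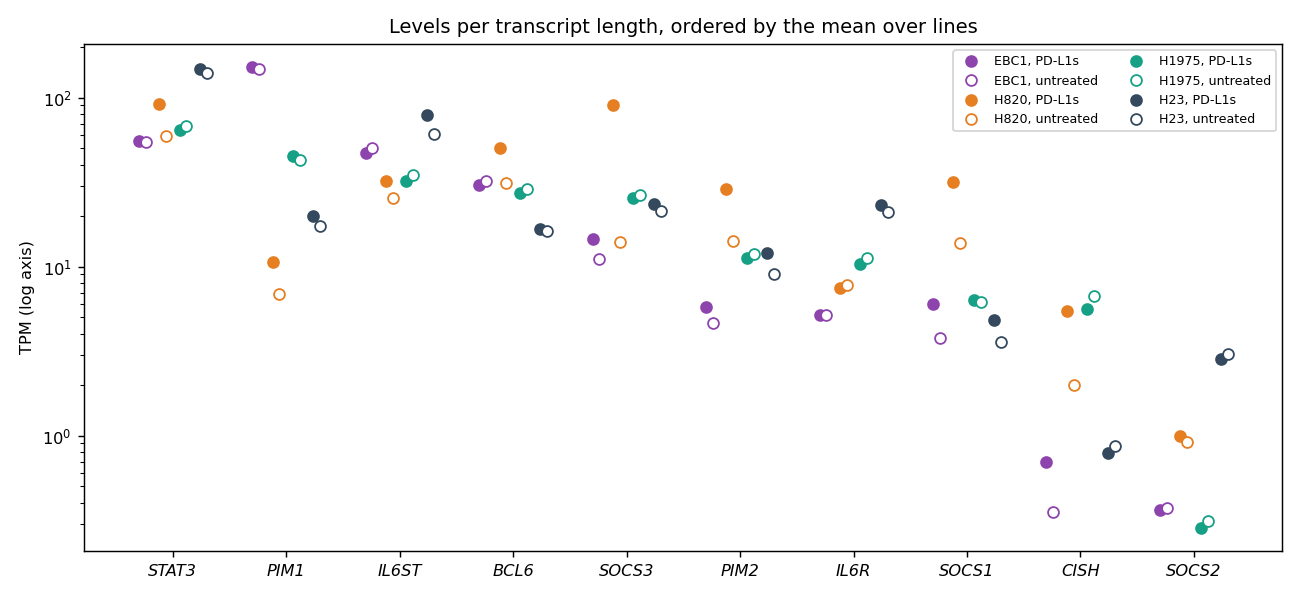
TPM of each gene (log y axis), ordered from left to right by the mean over lines, with filled points for PD-L1s and open points for untreated libraries and a colour per line. STAT3 leads with a mean of 85.2 TPM and SOCS2 is lowest with 1.14 TPM, and treated H820 stands apart for SOCS3.

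The other genes of the pathway were taken from 7 lists. Beside FOS and FGB, described below, edgeR called none of their genes, and DESeq2 and limma-voom called none outside the list of STAT3 targets. Unadjusted p-values under 0.05 were had by 1 of 4 partner receptors, 1 of 5 paralogues, 3 of 14 other receptors and 11 of 22 STAT3 targets, and by 0 genes of the remaining lists, against 3.61% of all genes. Among 6 tested of 8 ligands that use gp130, 0 were called and the median fitted log2 was 0.18. LIF, a ligand of this family, had 82.2 CPM in treated and 24.2 CPM in untreated H820, 204 CPM in treated and 179 CPM in untreated EBC1, 151 CPM in treated and 157 CPM in untreated H1975, and 94.5 CPM in treated and 92.6 CPM in untreated H23 (log2 0.42 ± 0.20, adjusted p = 0.9995, edgeR). In H820 LIF was thus 3.40-fold higher (2.86 to 4.06), from a single library of each condition. In the H820 pair 629 of 14883 genes (4.23%) were over 2-fold higher, and a link of LIF to SOCS3 was not tested. IL6 itself stayed low, with at most 11.5 CPM in treated and 6.55 CPM in untreated spheres, both in H1975, and in H820 it had 26 counts in the treated and 0 in the untreated library.

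Of 5 receptors that pair with gp130, 4 were tested and 0 were called. All 4 had a fitted log2 above 0 (59.9% of all genes), with a median of 0.22, and 0.11 without H820. LIFR, the LIF receptor chain, had 204 CPM in treated and 125 CPM in untreated H820. OSMR, the oncostatin M receptor chain, was the most abundant at 991 CPM in treated and 953 CPM in untreated EBC1. Of the 10 JAK kinases and other STATs, 0 were called and 7 had a fitted log2 above 0 (median 0.06), near the 59.9% of all genes. JAK1, the main kinase on gp130, had 494 CPM in treated and 378 CPM in untreated H820, and STAT5A, a STAT of the growth hormone and prolactin pathways, had log2 -0.38 ± 0.18 (adjusted p = 0.9995). Of the 5 paralogues of SOCS and PIM, 0 were called (median 0.04), and PIM3, the remaining PIM kinase, had the smallest p among them. PIM3 had 148 CPM in treated and 62.0 CPM in untreated H820 and 342 CPM in treated and 237 CPM in untreated EBC1, with 97.4 CPM in treated and 102 CPM in untreated H1975 and 40.8 CPM in treated and 42.4 CPM in untreated H23 (log2 0.40 ± 0.17, adjusted p = 0.9995).

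Among 8 other brakes, phosphatases and PIAS proteins, 0 were called. All 8 were above 0 by little (median 0.05), where 59.9% of all genes were above 0. Without H820 their median was -0.007, and within H23 it was -0.10. Among 14 tested of 17 other receptors that use JAKs, 0 were called (median 0.19), with LEPR, the leptin receptor, at 55.2 CPM in treated and 27.4 CPM in untreated H820 (log2 0.53 ± 0.14, adjusted p = 0.980). Of 25 textbook targets of STAT3, 22 were tested, all 22 had a fitted log2 above 0 (59.9% of all genes), and edgeR called 2, FOS and FGB (background 0.0372%). DESeq2 called 1 of the 22 and limma-voom 2. FOS is also an early growth response gene that many signals induce. FGB, the fibrinogen beta chain, was at 147 CPM in treated and 19.0 CPM in untreated H820 and at most 0.201 CPM in any other library, so its call rests on that line. The median of the 22 targets was 0.35, and 0.14 without H820. Within lines it was 0.72 in H820, 0.30 in EBC1, 0.05 in H1975 and -0.10 in H23, the same order as for the 10 genes except that H23 came below H1975.

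**Figure D5:**
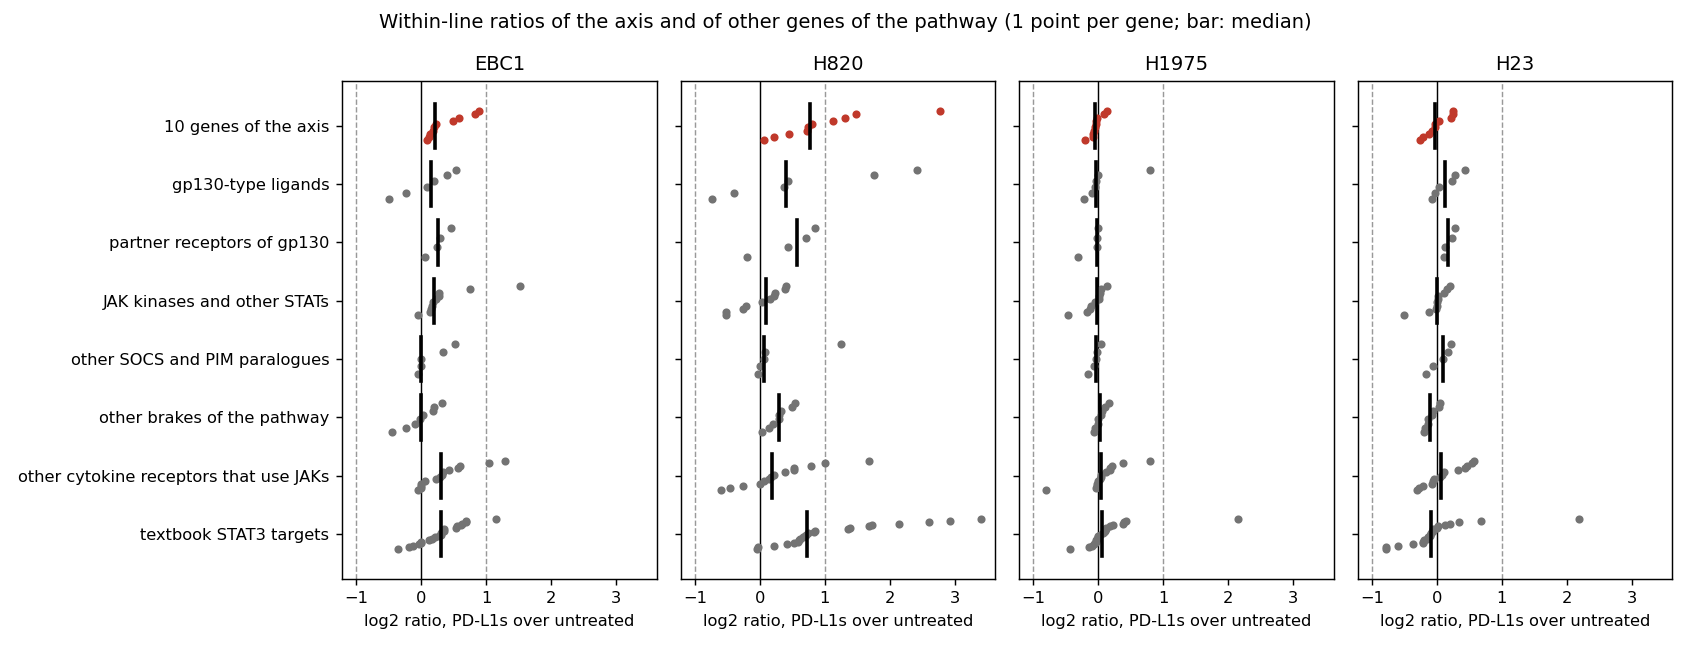
Log2 ratio of PD-L1s over untreated CPM within each line (x axis), with a prior count of 5, for the 10 genes (red) and the tested genes of 7 lists of the pathway (grey), 1 point per gene; black bars are medians and dashed lines mark 2-fold. In H820 the medians of the 10 genes and of the STAT3 targets are 0.78 and 0.72, and in H1975 and H23 the medians of all lists lie between -0.10 and 0.17.

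For each gene the protein-coding genes with the most similar pattern over the 8 libraries were found by Pearson r of log2 CPM among 13638 genes, as a description. The libraries of a line share that line, so each r rests largely on differences between 4 lines. For PIM1 the nearest were FAM65A (r = 0.997), EMD and DIAPH1. For CISH the nearest was FNTA (0.996), for BCL6 MCU (0.995), for IL6R P3H3 (0.998), for IL6ST MZT1 (0.993), for SOCS2 LAMC3 (0.992) and for SOCS1 KIAA1429 (0.985). For SOCS3, whose pattern is set by treated H820, the nearest were OSTC (0.971), SEC61A1 (0.967) and PDGFC (0.959). OSTC and SEC61A1 act in the processing and import of proteins at the endoplasmic reticulum, and SEC61A1 had 387 CPM in treated and 226 CPM in untreated H820. For PIM2 the nearest was USPL1 (0.983), and for STAT3 CITED2 (0.979), which had 165 CPM in treated and 60.6 CPM in untreated H820.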

How the data were processed

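RNA was sequenced from 8 libraries of 4 lines, and the submitters' processing notes name the builds GRCh37 and hg19, the aligner STAR (2.7.3a) and featureCounts from Subread (2.0.0). The deposited values are raw counts per gene, not normalised. Per the file headers, featureCounts used a lifted GENCODE basic annotation and the reverse strand setting and took pairs on exons from primary alignments with both ends mapped, and a pair that overlaps several genes counts for each. No exon of the 10 genes overlaps another gene on its strand. The exonic lengths that the authors deposited beside the counts were used for TPM.

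Genes were kept by edgeR's filter (version 4.0.16, R 4.3.3) grouped by line, at a minimum count of 10. The quasi-likelihood F test was fitted to all 24185 genes with TMM scaling and the terms line and treatment, with Benjamini-Hochberg adjustment over all genes and calls under 0.05. Same-line libraries form the pairs, per the labels, and 86.3% of genes differed between lines. Tests are two-sided. The fit was tested on simulated data with known changes. Within-line log2 ratios of CPM use a prior count of 5. A count of 0 allows up to 3 counts. Alternatives were other scalings, filters and tools (DESeq2 1.42.0, limma-voom 3.58.1), thinned counts, no pairing by line, and leaving out lines or libraries. PECAM1, a marker symbol, had no match in the files. Genes named beside the 10 were those called in a list, or up to 3 by unadjusted p and up to 3 by TPM. The 10 genes, the lists and the tests were chosen with earlier results of these data known. Nothing says that libraries of a line came from separate cultures, so p-values for line differences may measure technical spread only.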

Additional observations from a re-analysis of the deposited data

Results flagged for a closer look

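In 3 of 20 groups of 4 libraries (10 genes in each of 2 conditions), 1 library stood far from the others, with a gap to its nearest neighbour that took most of the group's range. Chance would flag about 1 in 20 groups if the 4 values of a group came from 1 normal population. Here they come from 4 different lines and the flags share a library, so that rate need not hold. All 3 were among the PD-L1s libraries and in each the high library was H820. For SOCS3 the gap was 0.874 of the range, with H820 at 172 CPM and the others at 27.6 to 45.9 CPM. For SOCS1 it was 0.851, with H820 at 39.9 CPM and the others at 3.72 to 9.10 CPM. For PIM2 it was 0.833, with H820 at 42.0 CPM and the others at 10.04 to 15.4 CPM.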

How the results depend on the processing

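The number of genes called for the treatment was 9 and moved to 15 by library size, 98 with no low-count filter, 3 at a minimum count of 50, 4 with thinned counts and 28 with H23 and H1975 only. Leaving out each line gave 5 to 20. Without the replicate block by line 0 genes passed in edgeR, with 14 at an unadjusted p under 0.05. Of the 10 genes 2 were called with no filter, SOCS3 and SOCS1, and 0 under every other setting, DESeq2 and limma-voom included. The cause was not tested. The fitted treatment values turned for SOCS3 (-0.023), CISH (-0.23), BCL6 (-0.081), STAT3 (-0.054) and IL6R (-0.042) with H23 and H1975 only. IL6R also turned by library size (-0.039), at a minimum count of 50 (-0.012) and with protein-coding genes only (-0.0082). Leaving out each line, values ran over -0.17 to 0.063 for SOCS2, -0.10 to 0.79 for CISH, -0.024 to 0.26 for BCL6 and -0.038 to 0.040 for IL6R. None of these values passed the threshold.

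The differences between lines that turned were small or rested on a single library. Leaving out each library, EBC1 minus H820 ran over -2.53 to 0.14 for SOCS3, -0.52 to 0.33 for BCL6 and -0.56 to 0.18 for STAT3. EBC1 minus H1975 ran over -0.52 to 0.28 for SOCS1 and -0.17 to 0.17 for STAT3, and EBC1 minus H23 over -0.62 to 0.50 for SOCS3 and -0.46 to 0.69 for CISH. H820 minus H1975 ran over -0.85 to 1.83 for SOCS3, -0.16 to 0.57 for STAT3 and -0.39 to 0.00016 for IL6ST, and H820 minus H23 over -0.11 to 2.56 for SOCS3. By library size, EBC1 minus H1975 was -0.17 for STAT3, and EBC1 minus H23 was -0.30 for CISH and -0.29 for IL6ST. EBC1 minus H1975 for STAT3 was -0.025 with no filter and -0.043 with thinned counts, where SOCS1 had 0.032. Without a treatment term SOCS1 had 0.080 for EBC1 minus H1975 and SOCS3 0.037 for EBC1 minus H23.

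For the response of EBC1 and H820 minus H23 and H1975, the 10 genes called in all moved to 5 with DESeq2 size factors and 2 with thinned counts, and IL6R turned by library size (-0.033). For EBC1 minus the adenocarcinoma lines, leaving out each of those lines gave 3 to 619 genes. There SOCS3 ran over -0.70 to 0.60, PIM1 over -0.12 to 0.13, PIM2 over -0.15 to 0.39, BCL6 over -0.22 to 0.19, STAT3 over -0.10 to 0.25 and IL6ST over -0.19 to 0.010, and 0 of the 10 genes were called. CISH and SOCS2 had under 50 counts in both libraries of 2 lines, so their ratios there have wide counting intervals.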
